A study of Mus musculus with 18 samples.

Results

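Gene expression in mouse ear lipochondrocytes at postnatal day 21 (P21) was compared with that at postnatal day 13 (P13), the step at which transcripts for lipid storage became abundant. The genes described are those with at least 1 FPKM (a count of fragments divided by gene length and by library size) in at least 3 of the 6 P13 and P21 libraries, which kept 10857 of the 46983 genes in the deposited table. Of these, 8592 reached 1 FPKM in all 6 libraries. The value that decides entry, the one ranked 3 of 6, was 1.0 FPKM at the lowest for genes inside this limit and 0.99 at the highest for genes outside it. A further 22931 genes were listed at 0 in all 6 libraries. Because 688 genes passed through the P21 libraries alone and 116 through the P13 libraries alone, these had to differ between the stages, and counts that include them say less than their size.

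Both groups hold 3 libraries from the ear cartilage plate, and all mice are labelled as Wnt1-Cre2;TdTomato on a C57BL/6 background. The Wnt1-Cre2 transgene drives Cre recombinase in the neural crest and dorsal neural tube, so that the red fluorescent reporter TdTomato marks cells descended from it. P13 cells were freed with collagenase and sorted for high TdTomato signal. P21 cells were freed in the same way and taken, without sorting, as the fraction that floats in a centrifuge. Stage and isolation therefore changed together, and their parts in any difference cannot be told apart. P10 cells were sorted like P13 cells and P33 cells were floated like P21 cells, and a second comparison, P33 against P10, shares no library with the first. Inguinal adipocytes at P33 from mice of the same genotype, also floated, give a reference level for fat genes. The labels do not say whether libraries came from separate animals or pools, so p-values measure the spread between these libraries.

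Lipochondrocytes are cartilage cells of elastic cartilage that hold a large lipid droplet within a matrix of collagen II, aggrecan and elastin. Cells that make fat from sugar export citrate from mitochondria and cleave it to acetyl-CoA. Acetyl-CoA carboxylase turns this into malonyl-CoA, with which fatty acid synthase extends the chain, and stearoyl-CoA desaturase desaturates the product. Acyl chains are then esterified to glycerol 3-phosphate, the last acyl group is added by a diacylglycerol acyltransferase, and the triglyceride is packed into droplets coated with perilipins. In adipocytes the store is released again by lipases under hormonal control, with G0s2 acting as an inhibitor of the first lipase. RNA was measured here, and lipid was not.

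The stretches before the transcription start of 7 genes are shown because these genes stand for the sets of members that moved together: lipid genes that were higher at P21 (Fasn, Slc25a1, Plin2), cell division genes that were lower (Cdk1, Ccnb1) and immediate early genes that were lower (Fos, Atf3). Each is the 250 bases upstream of the start as RefSeq gives it on GRCm38.p6, printed 5′ to 3′ on the strand of the gene. Capitals mark a CCAAT box (CCAAT), an E-box (CACGTG) or a CRE half-site (TGACGT), searched on both strands, so that ATTGG and ACGTCA are the same motifs read on the other strand.
Fasn, chr11:120824548-120824797 (- strand): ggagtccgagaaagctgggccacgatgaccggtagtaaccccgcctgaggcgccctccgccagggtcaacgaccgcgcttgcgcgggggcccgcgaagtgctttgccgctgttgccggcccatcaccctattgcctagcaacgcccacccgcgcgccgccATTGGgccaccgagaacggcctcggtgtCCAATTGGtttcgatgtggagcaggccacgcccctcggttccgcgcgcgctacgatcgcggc
Slc25a1, chr16:17928220-17928469 (- strand): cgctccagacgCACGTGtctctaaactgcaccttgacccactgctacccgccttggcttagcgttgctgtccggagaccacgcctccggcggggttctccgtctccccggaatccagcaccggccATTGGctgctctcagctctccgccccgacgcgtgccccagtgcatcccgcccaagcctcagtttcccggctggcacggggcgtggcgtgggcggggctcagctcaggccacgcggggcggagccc
Plin2, chr4:86670060-86670309 (- strand): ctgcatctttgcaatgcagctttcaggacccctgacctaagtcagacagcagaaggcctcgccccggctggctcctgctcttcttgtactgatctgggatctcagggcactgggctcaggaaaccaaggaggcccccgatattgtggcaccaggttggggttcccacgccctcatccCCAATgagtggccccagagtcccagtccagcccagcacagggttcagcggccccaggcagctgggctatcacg
Cdk1, chr10:69352913-69353162 (- strand): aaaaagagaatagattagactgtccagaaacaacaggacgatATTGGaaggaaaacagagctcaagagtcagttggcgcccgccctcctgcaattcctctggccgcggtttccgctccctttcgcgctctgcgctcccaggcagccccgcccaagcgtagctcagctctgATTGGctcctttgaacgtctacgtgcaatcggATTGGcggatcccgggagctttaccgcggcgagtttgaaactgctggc
Ccnb1, chr13:100786487-100786736 (- strand): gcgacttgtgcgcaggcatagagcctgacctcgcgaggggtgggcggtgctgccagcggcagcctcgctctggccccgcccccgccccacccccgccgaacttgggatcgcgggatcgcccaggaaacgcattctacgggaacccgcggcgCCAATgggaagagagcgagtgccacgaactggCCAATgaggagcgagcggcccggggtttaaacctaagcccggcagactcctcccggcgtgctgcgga
Fos, chr12:85473640-85473889 (+ strand): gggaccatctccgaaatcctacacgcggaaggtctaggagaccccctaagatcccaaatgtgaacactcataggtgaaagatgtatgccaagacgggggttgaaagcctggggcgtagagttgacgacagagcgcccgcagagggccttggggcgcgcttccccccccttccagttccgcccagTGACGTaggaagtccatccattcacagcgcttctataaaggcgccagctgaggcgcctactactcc
Atf3, chr1:191183334-191183583 (- strand): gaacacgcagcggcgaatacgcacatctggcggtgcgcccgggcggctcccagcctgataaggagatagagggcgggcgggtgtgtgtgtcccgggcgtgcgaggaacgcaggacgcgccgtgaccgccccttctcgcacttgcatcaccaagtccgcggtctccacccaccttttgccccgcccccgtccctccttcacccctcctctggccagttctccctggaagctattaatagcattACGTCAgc
In Fasn the CCAAT boxes begin at -90, -62 and -59 from the start, the last 2 overlapping on opposite strands. Slc25a1 has a CCAAT box at -125 and an E-box at -239, and Plin2 has a CCAAT box at -73. The CCAAT boxes of Cdk1 lie at -208, -80 and -48, those of Ccnb1 at -99 and -67, and the CRE half-sites at -66 in Fos and -8 in Atf3.

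Promoters of 27025 genes were on hand, of which 7739 belonged to genes described here. A CCAAT box occurred in 37.5% of all promoters and in 40.5% of those of the genes kept. It occurred in 23 of 39 promoters (59.0%) of the listed fatty acid synthesis, triglyceride synthesis and droplet genes and in 15 of 17 (88.2%) of the listed proliferation genes. The E-box was found in 6.86% of all promoters, in 10.3% of those of the genes kept and in 5 of the 39 lipid gene promoters (12.8%). A site of the sterol regulatory type (TCACNCCAC) was found in 1.22% of all promoters, in 1.21% of those of the genes kept and in 2 of the 39 lipid gene promoters. The CRE half-site was in 7.29% of all promoters, in 12.1% of those of the genes kept and in 5 of 16 (31.2%) of the promoters of genes that are known to respond when tissue is taken apart into cells (immediate early and stress genes, called the dissociation response here). Matches describe letters in a window, not bound sites.

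Differences were tested on log2(FPKM + 1) with a linear model over all 18 libraries of the series, and genes with an adjusted p below 0.05 are called. With FPKM as deposited, 4397 of the 10857 genes (40.5%) rose from P13 to P21 and 852 (7.85%) fell. Among all 13815 genes of the model, 36.0% were higher and 7.04% lower. The median difference of the genes kept was 0.34 on the log2 scale, that is, the deposited P21 values were higher for most genes. When each library was divided by the median of its ratios to the geometric mean library (median-of-ratios scaling), this median was 0.00, and 1956 genes (18%) were higher and 1978 (18.2%) lower. All 1956 rises under that scaling were also rises as deposited, all 852 falls as deposited were also falls under it, and 0 genes were called in opposite directions. Counts under median-of-ratios scaling are therefore given second throughout, and small differences are read against the median of 0.34. Larger differences were less dependent on it: 295 genes rose by at least 2 log2 units and 104 fell by as much, against 180 and 158 after scaling. The median standard error (SE) was 0.17.

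**Figure D1:**
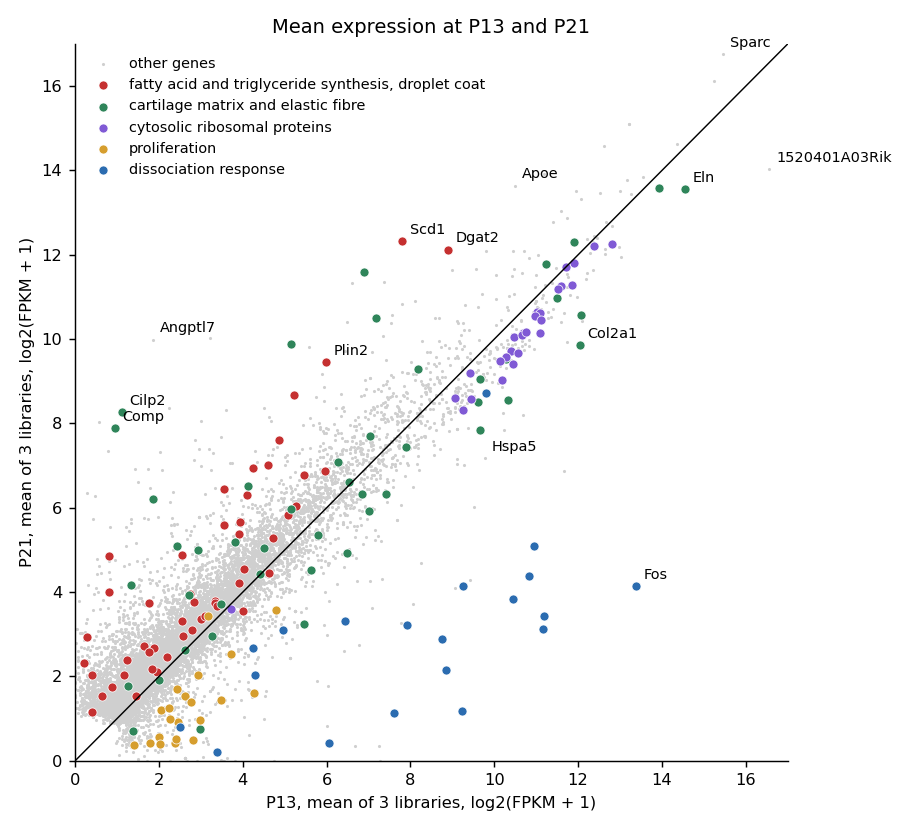
Mean level of each gene kept, at P13 (horizontal axis) and P21 (vertical axis), in log2(FPKM + 1), each a mean of 3 libraries; the diagonal marks equal levels and 5 groups of genes are coloured. Lipid genes such as Scd1 and Dgat2 lie above the diagonal, the dissociation response genes such as Fos lie below it, and matrix genes lie on both sides, with Comp and Cilp2 above and Col2a1 and Eln below.

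The 6 libraries had 12804474 to 22494553 total reads, and the deepest and the shallowest were both P21 libraries. Alignment rates were 82.28% to 84.15% at P13 and 75.54% to 79.37% at P21. Between 9778 and 9964 genes reached 1 FPKM in a P13 library, against 10921 to 11441 in a P21 library. In bulk RNA, a change in the number of cells of a type and a change in RNA per cell cannot be told apart. The cartilage label was borne out by the markers: the lowest value in any of the 6 libraries was 850.1 FPKM for Col2a1, 9542 for Cytl1 and 10065 for Eln, whereas adipocytes held 0.0133 ± 0.0231, 0.990 ± 0.459 and 3.99 ± 0.790 FPKM (mean ± SD, n = 3).

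Most of the enzymes that make fatty acids rose from P13 to P21. Slc25a1, the mitochondrial citrate carrier, stood at 34.3, 35.5 and 39.7 FPKM in the P13 libraries and at 373, 467 and 383 FPKM in the P21 libraries. All P21 values were above all P13 values, by 11.2-fold in the means (log2 difference 3.44, SE 0.13, adjusted p = 4.91e-11). Acly, which cleaves cytosolic citrate, went from 12.2, 18.7 and 17.7 FPKM to 112, 74.9 and 48.0 FPKM (log2 difference 2.15, SE 0.28, adjusted p = 2.61e-05). The rise of Acaca, acetyl-CoA carboxylase, was less secure, from 2.02, 2.79 and 1.56 FPKM to 8.55, 5.40 and 2.92 FPKM (log2 difference 1.01). Its call was lost after scaling (0.68, adjusted p = 0.0740) and with only the 2 groups in the model (adjusted p = 0.0737). Fasn, fatty acid synthase (chr11:120805846-120824547), measured 27.7, 30.5 and 26.0 FPKM at P13 and 243, 212 and 127 FPKM at P21 (6.91-fold, log2 difference 2.70, SE 0.21, adjusted p = 1.68e-07). Scd1, the main stearoyl-CoA desaturase (ENSMUSG00000037071.2, chr19:44394455-44407879), went from 201, 241 and 227 FPKM to 6159, 5242 and 3944 FPKM, a 23.0-fold rise (log2 difference 4.50, SE 0.27, adjusted p = 8.71e-09). For Acly, Fasn and Scd1 the third P21 library was the lowest and the first the highest, but no P21 value reached down to P13. The adipocyte level was 10205 ± 550 FPKM for Scd1 and 744 ± 39.3 FPKM for Fasn, so that the P21 means stood below adipocytes in both. They stood above P33, where Scd1 was at 2796 ± 1199 FPKM and Fasn at 49.4 ± 9.91 FPKM.

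Regulators of this set rose as well. Srebf1, the sterol regulatory factor that drives fatty acid synthesis genes, was at 23.5, 20.9 and 25.9 FPKM in P13 libraries and 96.1, 124 and 162 FPKM in P21 libraries (log2 difference 2.37, SE 0.21, adjusted p = 5.22e-07). Here the third P21 library was the highest, the reverse of the order for Fasn. Thrsp, a lipogenic cofactor abundant in fat, was at 0.37, 0.82 and 1.10 FPKM against 31.7, 32.3 and 19.5 FPKM, and Nr1h3, the oxysterol receptor LXR alpha, at 0.17, 0.39 and 0.10 against 5.31, 7.31 and 7.34 FPKM (log2 differences 4.02, adjusted p = 2.38e-08, and 2.64, adjusted p = 2.03e-09). Neither gene reached 2 FPKM in any P13 library, and each passed 5 FPKM in every P21 library. Of the 24 genes on the fatty acid synthesis list 18 were expressed, and 14 rose while 0 fell, with a median log2 difference of 1.72 beside 0.34 over all genes kept. Among the 18, 1 (Nr1h3) passed through P21 libraries alone. After scaling, 11 rose and 1 fell. That gene was the elongase Elovl6, at 19.8, 27.6 and 23.6 FPKM and 26.6, 22.8 and 13.4 FPKM, groups that overlap (log2 difference -0.21, adjusted p = 0.415 as deposited, and -0.63, adjusted p = 0.0175 after scaling). Scd2, a second desaturase, rose from 59.1, 64.4 and 59.3 to 154, 108 and 84.3 FPKM (log2 difference 0.87, SE 0.27, adjusted p = 0.0182), but the call was lost after scaling (0.44, adjusted p = 0.217), without the first P21 library (0.64, adjusted p = 0.0885) and without the first P13 library (0.85, adjusted p = 0.0502).

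Elongation and front-end desaturation genes had smaller differences. Of 12 expressed genes on that list, 5 rose and 0 fell as deposited, and 2 rose and 3 fell after scaling, with medians of 0.14 and -0.17. Both numbers of rises lay near the shares of all genes kept (40.5% as deposited, 18% after scaling). Tecr, the last reductase of the elongation cycle, had the largest difference on that list, with 143, 169 and 174 FPKM at P13 and 538, 493 and 411 FPKM at P21 (log2 difference 1.56, SE 0.13, adjusted p = 4.45e-07). Of the suppliers of NADPH, the reducing agent of fatty acid synthesis, malic enzyme Me1 rose from 9.36, 11.8 and 11.2 to 65.7, 42.6 and 33.1 FPKM (log2 difference 1.98, adjusted p = 8.14e-06). G6pdx, the first enzyme of the pentose phosphate pathway, rose from 3.99, 4.55 and 4.45 to 12.8, 15.4 and 11.3 FPKM (log2 difference 1.40, adjusted p = 3.34e-07). With them, 4 of 9 expressed genes of NADPH supply rose and 0 fell, against 2 and 2 after scaling, shares near those of all genes kept (40.5% higher as deposited, 18% higher and 18.2% lower after scaling).

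Genes that assemble triglyceride rose at most of their steps. Dgat2, which adds the last acyl chain (ENSMUSG00000030747.4, chr7:99153658-99182719), was at 419.6, 481 and 528 FPKM in P13 libraries and 4763, 4929.9 and 3706 FPKM in P21 libraries. The groups lay 9.38-fold apart in the means with no overlap (log2 difference 3.22, SE 0.19, adjusted p = 7.00e-09), and the P21 level exceeded that of adipocytes (1851 ± 47.6 FPKM) in this table of separately prepared libraries. Gpd1, which makes glycerol 3-phosphate, went from 0.67, 0.59 and 1.02 to 15.6, 15.8 and 13.8 FPKM (log2 difference 3.20, SE 0.14, adjusted p = 4.65e-10). Agpat2, the second acyltransferase, went from 10.2, 9.88 and 12.3 to 98.0, 86.8 and 74.0 FPKM (log2 difference 2.88, SE 0.14, adjusted p = 9.42e-10). Mogat1, which acylates monoacylglycerol, went from 12.9, 16.8 and 13.0 to 60.0, 56.2 and 31.9 FPKM (log2 difference 1.68, SE 0.30, adjusted p = 4.58e-04). The P21 spread of Mogat1 was wider than that of Agpat2, with the third library again the lowest. Dgat1, the other enzyme of the last step, was at 5.89, 7.01 and 5.61 FPKM and 11.5, 12.9 and 13.3 FPKM, a 2.03-fold difference (log2 difference 0.92, adjusted p = 2.28e-05). Of 19 expressed genes on the list (of 22), 15 rose and 0 fell, and 12 and 0 did so after scaling; 2 of the 19 passed through P21 libraries alone.

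At the droplet surface, Plin2 and Cidea rose most. Plin2, the perilipin found on droplets in most cell types (chr4:86648386-86670060), was at 57.9, 59.7 and 70.2 FPKM at P13 and 708, 807 and 583 FPKM at P21 (11.2-fold, log2 difference 3.45, SE 0.14, adjusted p = 1.26e-10). Cidea, which promotes droplet fusion, was at 18.4, 16.1 and 19.8 FPKM and 93.3, 139.8 and 133 FPKM (log2 difference 2.67, SE 0.16, adjusted p = 1.26e-08). The adipocyte levels were 613 ± 20.2 FPKM for Plin2, within the P21 range, and 95.3 ± 2.26 FPKM for Cidea. Other droplet genes of adipocytes were far lower in the ear libraries: Plin4 was at 3.99, 2.96 and 2.28 FPKM at P21, and Plin1 and Cidec stayed below 1.1 FPKM in every P13 and P21 library against 440 ± 13.1 and 2782 ± 111 FPKM in adipocytes. Of 13 expressed droplet genes (of 18 listed), 11 rose and 1 fell as deposited, and 6 and 1 after scaling; 2 of the 13 passed through P21 libraries alone. Lpcat1, which makes phosphatidylcholine, was the one that fell (log2 difference -0.45, adjusted p = 0.00591).

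The fatty acid synthesis, triglyceride synthesis and droplet lists together took 0.119%, 0.140% and 0.144% of the FPKM of the P13 libraries and 1.25%, 1.15% and 0.853% of those of the P21 libraries. The P21 shares did not overlap those at P13 (exact permutation test, two-sided, p = 0.1, the smallest that 3 libraries against 3 allow).

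**Figure D2:**
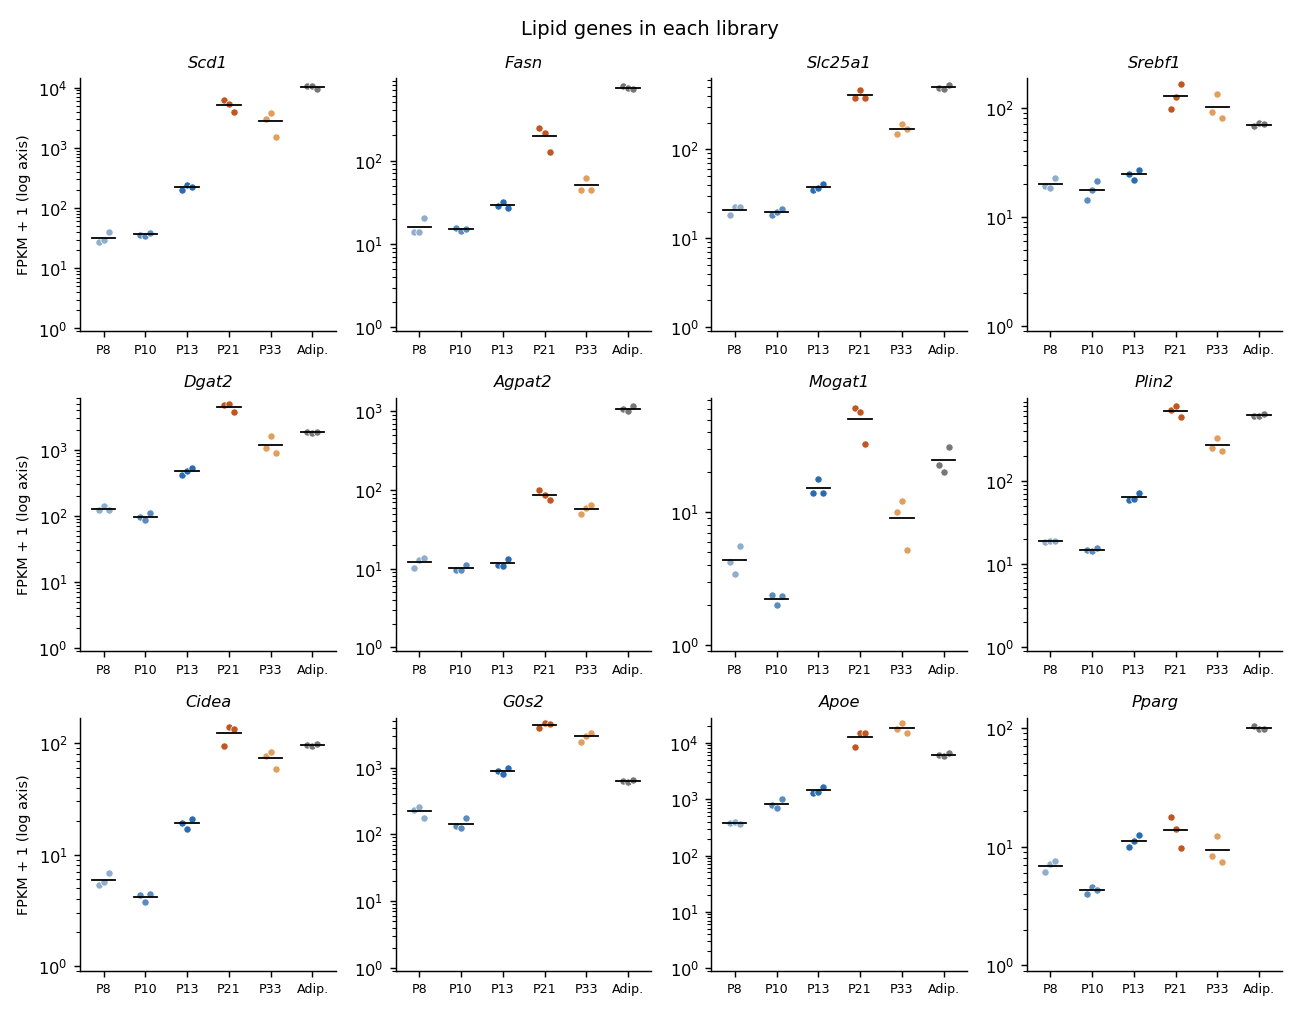
Levels of 12 lipid genes in each of the 18 libraries, in FPKM + 1 on a log axis whose range differs between panels; points are libraries, coloured by group, and bars are means of 3. In 11 panels every P21 point lies above every P13 point, and in that of Pparg the groups overlap.

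Genes that act on stored triglyceride rose as well, and the one with the largest difference was an inhibitor. G0s2, which blocks the lipase Pnpla2, was at 883, 806 and 988 FPKM in P13 and 3923, 4641 and 4603 FPKM in P21 libraries (log2 difference 2.30, SE 0.17, adjusted p = 1.03e-07), above its adipocyte level of 628 ± 22.0 FPKM. Pnpla2, adipose triglyceride lipase, was at 3.76, 3.18 and 3.77 FPKM and 9.65, 13.9 and 14.3 FPKM (log2 difference 1.56, SE 0.19, adjusted p = 1.68e-05), far below adipocytes (1951 ± 72.4 FPKM). Mgll, monoglyceride lipase, rose from 16.1, 14.3 and 15.3 to 49.3, 54.1 and 53.2 FPKM (log2 difference 1.72, adjusted p = 6.59e-05). Lipe, hormone-sensitive lipase, was at 1.70, 2.29 and 2.4 FPKM at P21 and lost its call after scaling (0.32, adjusted p = 0.216). Of 14 expressed lipolysis genes 11 rose, among them 3 that passed through P21 libraries alone, and 9 did after scaling. In both settings 1 fell, Prkar2b, whose call was lost without either the second or the third P21 library or the first or the second P13 library.

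Uptake genes were mixed, and the adipocyte programme stayed low. Vldlr, a lipoprotein receptor, rose from 3.11, 4.19 and 2.45 to 23.9, 18.4 and 15.9 FPKM (log2 difference 2.26, adjusted p = 3.06e-07). Lpl, lipoprotein lipase, was at 3.57, 3.18 and 2.78 and 3.34, 2.70 and 2.93 FPKM, overlapping groups (log2 difference -0.06, adjusted p = 0.754), against 5123 ± 167 FPKM in adipocytes. The fatty acid transporter Slc27a3 fell from 12.5, 12.3 and 12.4 to 5.65, 7.29 and 6.60 FPKM (log2 difference -0.84, adjusted p = 6.94e-04). On this list 10 of 14 expressed genes rose and 2 fell, against 5 and 3 after scaling; without the third P21 library 6 rose, and 1 fell without that library, the second P21 library or the first or the second P13 library. Pparg, the nuclear receptor that directs fat cell formation, was at 8.96, 10.2 and 11.5 FPKM at P13 and 16.7, 13.0 and 8.63 FPKM at P21. These groups overlap, and the sign depended on scaling (log2 difference 0.26, adjusted p = 0.329, and -0.15, adjusted p = 0.591, after scaling). Cebpa, its partner, was called (2.97, 2.72 and 2.76 to 13.5, 7.03 and 4.56 FPKM, log2 difference 1.18, adjusted p = 0.0351) but lost the call after scaling (0.82, adjusted p = 0.139) and without the first P21 library (0.81, adjusted p = 0.159), and also without the second P21 library or any 1 of the P13 libraries (adjusted p from 0.0635 to 0.0766).

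Summed over all 18 genes, adipocyte identity markers took 18.2 to 20.2 FPKM in P13 libraries, 56.4 to 81.6 FPKM in P21 libraries and 120610 to 127030 FPKM in adipocytes. The first P21 library was the highest and the third the lowest, as for Fasn and Scd1. Only 8 of the 18 were expressed by the limit used; 6 of them rose, 4 of which passed through P21 libraries alone. Adipoq stayed below 1 FPKM in all 6 libraries, and Lep and Adrb3 were listed at 0 in all of them. Beyond these values, the part of adipocytes in the lipid gene results was not tested. Fabp4, the fatty acid binding protein of fat cells, was at 13.2, 18.7 and 17.3 FPKM at P21 against 33501 ± 1161 in adipocytes, and its order among the P21 libraries was not that of Scd1. Slc2a4, the insulin-responsive glucose transporter, rose from 0.40, 0.39 and 0.28 to 20.2, 12.6 and 10.4 FPKM (log2 difference 3.46, adjusted p = 6.04e-09). Ghr, the growth hormone receptor, rose from 12.1, 12.4 and 11.2 to 29.0, 27.7 and 25.2 FPKM (log2 difference 1.13, adjusted p = 3.42e-06). Both were among 11 of 16 insulin and hormone receptor genes that rose, while 1 fell, against 5 and 1 after scaling; 2 of the 16 passed through P21 libraries alone.

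Pathways that use fuel had median differences of 0.66 log2 (fatty acid oxidation), 0.66 (peroxisome) and 0.43 (respiratory chain), beside 0.88 for triglyceride synthesis and 0.34 for all genes kept. Of 19 mitochondrial fatty acid oxidation genes 16 rose as deposited (10 with columns rescaled to an equal sum) and 6 after median-of-ratios scaling, when 2 fell. Eci2, an enoyl-CoA isomerase, had the largest difference, with 16.4, 23.5 and 23.7 FPKM and 52.4, 54.3 and 50.9 FPKM (log2 difference 1.29, adjusted p = 1.08e-06). Peroxisome genes rose in 20 of 26 cases and fell in 0, and in 9 and 0 after scaling, with Pex19, an import chaperone, at 11.2, 11.2 and 11.3 and 28.6, 30.2 and 33.2 FPKM (log2 difference 1.37, adjusted p = 4.58e-07). Of all genes kept, 40.5% rose and 7.85% fell as deposited, and 18% and 18.2% did so after median-of-ratios scaling. Of 24 nuclear-encoded respiratory chain subunits 10 rose and 0 fell as deposited, against 1 and 5 after that scaling. The deposited rises and the scaled falls thus lay near the shares of all genes kept. The 10 rises among these subunits became 6 without the third P21 library and 5 without the first P13 library. The mitochondrially encoded genes took 4.20% to 5.96% of FPKM at P13 and 4.72% to 4.93% at P21, overlapping shares (exact permutation test, two-sided, p = 0.9). Glycolysis had 9 rises and 2 falls among 19, against 6 and 4 after scaling, to be read against the same shares of all genes kept. Its extremes were Aldoc, an aldolase, at 4.19, 3.15 and 4.21 against 31.6, 54.4 and 54.9 FPKM (log2 difference 3.27, SE 0.20, adjusted p = 1.44e-08), and Ldha, which reduces pyruvate to lactate, at 1448, 1462 and 1624 against 809, 894 and 941 FPKM (log2 difference -0.78, SE 0.14, adjusted p = 4.55e-04). Removing any 1 of 5 of the 6 libraries, all but the second P13 library, left 1 of the 2 falls.

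Cholesterol synthesis genes moved in both directions. Of the 22 expressed, 8 rose and 2 fell, and 4 rose and 7 fell after scaling, with medians of -0.02 and -0.45. Among all genes kept 40.5% rose and 7.85% fell, or 18% and 18.2% after scaling, so the deposited counts lay near the shares of all genes kept. The falls numbered 5 without the first P21 library, and 1 without the second or the third P21 library or the first or the second P13 library. Stard4, a sterol carrier, fell from 14.8, 14.0 and 14.6 to 6.39, 3.85 and 5.60 FPKM (log2 difference -1.32, SE 0.15, adjusted p = 9.03e-06). Pmvk, an enzyme of the mevalonate route, rose from 23.2, 22.9 and 29.1 to 87.1, 82.2 and 60.1 FPKM (log2 difference 1.56, adjusted p = 1.67e-06).

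Transcripts of cartilage matrix genes were split between rises and falls. Of 23 expressed genes (of 24), 8 rose and 9 fell, or 7 and 11 after scaling. The rises were among the largest of all genes. Comp, cartilage oligomeric matrix protein (chr8:70373558-70382066), was at 0.76, 1.04 and 1.03 FPKM in P13 libraries and 129, 274 and 308 FPKM in P21 libraries (log2 difference 6.84, SE 0.36, adjusted p = 3.05e-09). Cilp2, a cartilage intermediate layer protein, went from 1.08, 1.09 and 1.30 to 154, 322 and 451 FPKM (log2 difference 7.04, SE 0.39, adjusted p = 4.50e-09). In each the first P21 library was the lowest of the 3, and still far above every P13 library. Chad, chondroadherin, rose from 77.7, 101 and 175 to 1551, 3717 and 3999.6 FPKM (26.2-fold, log2 difference 4.67, SE 0.38, adjusted p = 2.46e-07). Ucma, a small secreted cartilage protein, rose from 32.7, 33.1 and 37.7 to 507, 1088 and 1229 FPKM (27.3-fold, log2 difference 4.63, SE 0.25, adjusted p = 3.00e-09). Otos and Matn4, also secreted, rose by 4.35 and 2.33 log2 units.

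Several collagens of the cartilage fibril fell. Col2a1, the chain of collagen II (ENSMUSG00000022483.16, chr15:97975602-98004695), was at 3703, 4374 and 4664 FPKM at P13 and 1003, 935 and 850.1 FPKM at P21, a 4.57-fold fall with no overlap (log2 difference -2.19, SE 0.17, adjusted p = 1.60e-07). Col9a2, of the collagen IX that decorates its fibrils, fell from 1059.9, 1241 and 1553 to 488, 382 and 261 FPKM (log2 difference -1.79, SE 0.28, adjusted p = 1.57e-04). Col11a1, of the collagen XI within them, fell from 702, 903 and 817 to 298, 229.8 and 161 FPKM (log2 difference -1.85, SE 0.23, adjusted p = 1.98e-05). Col11a2, another chain of collagen XI, was at 198, 253 and 258 and 206, 170.1 and 146 FPKM, overlapping groups, and was called only after scaling (log2 difference -0.44, adjusted p = 0.154, and -0.88, adjusted p = 0.00424). Lect1, the gene of chondromodulin, fell from 4162, 4116 and 4509 to 1178, 1716 and 1653 FPKM (log2 difference -1.51, SE 0.20, adjusted p = 2.94e-05). Within P21 the order of the libraries was the same for Col9a2 and Col11a1, highest in the first and lowest in the third. Several cartilage genes were not called as deposited. Acan, the core protein of aggrecan, was at 116, 119 and 154 and 268, 212 and 137 FPKM (log2 difference 0.62, adjusted p = 0.220), and Mia, a small cartilage protein, at 3872, 3637 and 3962 and 4085, 5536 and 5420.4 FPKM (log2 difference 0.38, adjusted p = 0.112, and -0.06 after scaling). Sox9, the factor that directs collagen II and aggrecan, was at 182, 262 and 274 and 218, 223 and 178 FPKM, overlapping groups (log2 difference -0.20, adjusted p = 0.503, and -0.63, adjusted p = 0.0220, after scaling).

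Of the factors that act beside Sox9, Sox8 fell from 58.9, 68.0 and 62.3 to 6.33, 6.65 and 7.83 FPKM (log2 difference -3.02, SE 0.13, adjusted p = 4.07e-10), by more than any other of the 11 expressed chondrocyte transcription factors. Sox6 fell from 52.5, 42.5 and 29.3 to 21.6, 19.1 and 17.9 FPKM (log2 difference -1.01, SE 0.29, adjusted p = 0.0124), a call lost without the first P13 library (-0.83, adjusted p = 0.0608). Zbtb20, a zinc finger repressor, rose from 24.3, 29.3 and 31.3 to 97.9, 97.3 and 91.1 FPKM (log2 difference 1.72, SE 0.16, adjusted p = 1.25e-06). Hypertrophy and mineralization genes were largely below the limit, with 6 of 17 expressed and Mmp13 listed at 0 in all 6 libraries. Spp1, osteopontin, nonetheless rose from 10.2, 10.3 and 13.0 to 137, 335 and 476 FPKM (log2 difference 4.53, SE 0.38, adjusted p = 3.62e-07). Mgp, matrix Gla protein, an inhibitor of mineralization, rose from 4623, 3193 and 4029 to 10915, 9521 and 14696 FPKM (log2 difference 1.56, SE 0.29, adjusted p = 6.78e-04). Col10a1, the collagen of hypertrophic cartilage, was at 8.88, 7.36 and 9.83 and 58.7, 21.4 and 16.1 FPKM (log2 difference 1.56, adjusted p = 0.0184); it was not called after scaling (1.15, adjusted p = 0.0876), without the first P21 library (1.02, adjusted p = 0.0965) or without the second P13 library (1.46, adjusted p = 0.0552).

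**Figure D3:**
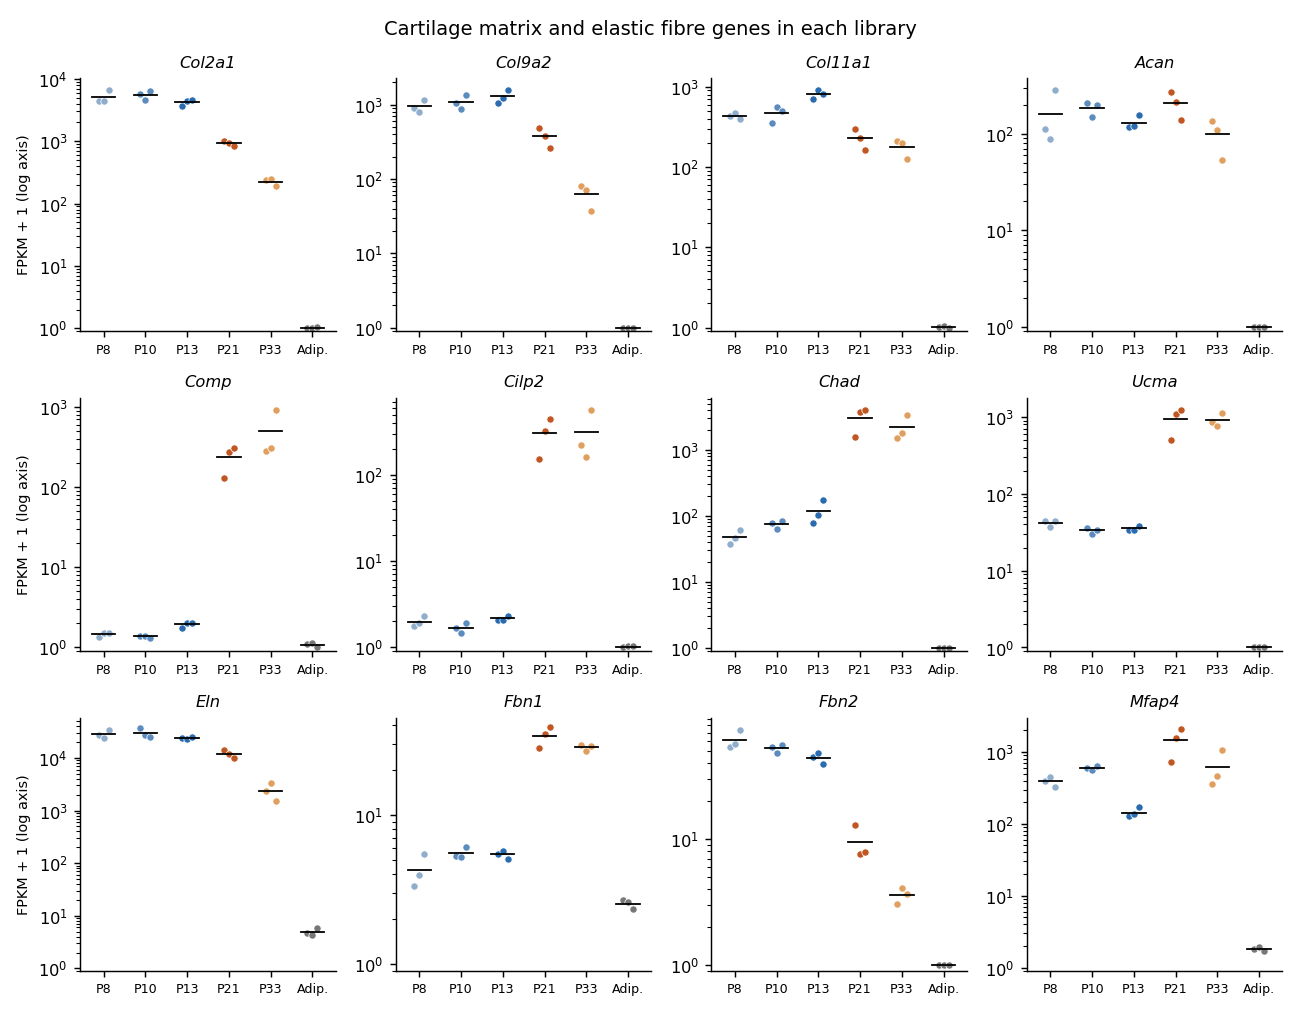
Levels of 12 matrix genes in each of the 18 libraries, in FPKM + 1 on a log axis whose range differs between panels; points are libraries and bars are means of 3. Comp, Cilp2, Chad, Ucma, Fbn1 and Mfap4 are higher at P21 than at P13, Col2a1, Col9a2, Col11a1, Eln and Fbn2 are lower, and the groups overlap for Acan.

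Small leucine-rich proteoglycans, which bind collagen fibrils, rose in 8 of 13 cases and fell in 2, and in 8 and 3 after scaling. Dcn, decorin, was at 185, 237 and 239 FPKM at P13 and 1147, 1774 and 2536 FPKM at P21 (log2 difference 2.98, SE 0.27, adjusted p = 9.32e-07). Fmod, fibromodulin, was at 168, 181 and 216 FPKM and 969.9, 1815 and 1771 FPKM (log2 difference 2.96, SE 0.19, adjusted p = 2.92e-08). The first P21 library was the lowest in both. Kera and Epyc fell, with Epyc, epiphycan, below 1.1 FPKM in all P21 libraries after 6.47 to 7.31 FPKM at P13.

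Elastic fibre genes moved in both directions. Eln, elastin (ENSMUSG00000029675.12, chr5:134702593-134747323), was at 24085, 23309 and 25075 FPKM at P13 and 14160.2, 11787 and 10065 FPKM at P21 (2.01-fold lower, log2 difference -1.02, SE 0.25, adjusted p = 0.00438). The elastin-binding Fbln5 and Efemp2, needed to deposit elastin, fell as well (log2 differences -1.10 and -1.11). Emilin1, which sits between elastin and fibrillin, fell from 162, 166 and 179 to 69.0, 78.9 and 89.3 FPKM. The fibrillins moved in opposite directions: Fbn2, the form of early development, fell from 44.3, 47.0 and 38.7 to 12.02, 6.68 and 6.91 FPKM (log2 difference -2.26, SE 0.18, adjusted p = 2.73e-07), and Fbn1 rose from 4.45, 4.76 and 4.10 to 27.3, 34.2 and 37.9 FPKM (log2 difference 2.64, SE 0.16, adjusted p = 8.59e-09). Ltbp1, which tethers latent TGF-beta to fibrillin, rose from 1.60, 1.52 and 1.43 to 16.6, 14.8 and 19.8 FPKM (log2 difference 2.84, SE 0.17, adjusted p = 1.09e-08). Mfap4, a microfibril protein, rose from 126, 134 and 168 to 731, 1550.2 and 2084 FPKM (log2 difference 3.22, SE 0.36, adjusted p = 7.33e-06). Of 22 genes 7 rose and 6 fell, and 5 and 10 after scaling. The list took 2.69% to 2.89% of FPKM at P13 and 1.25% to 1.55% at P21 (exact permutation test, two-sided, p = 0.1, the smallest possible).

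The summed level of fibroblast and perichondrium markers rose with part of these matrix genes, whereas the single markers were split. Over all 15 markers the sum was 2942 to 3811 FPKM in P13 libraries and 6014, 8852 and 10595 FPKM in P21 libraries 1, 2 and 3. Col1a1 and Col1a2, the chains of collagen I, rose from 426, 535 and 577 to 1928, 3342 and 4242 FPKM and from 645, 777 and 831 to 2149, 3489 and 4072 FPKM, with the first P21 library lowest, as for Comp, Chad, Dcn and Mfap4. Of the 15 markers 7 rose and 2 fell, against 7 and 6 after scaling, and Postn, periostin, was among the falls (81.2, 112 and 112 to 38.2, 27.1 and 50.4 FPKM). Of all genes kept, 40.5% rose and 7.85% fell, or 18% and 18.2% after scaling, so the deposited counts lay near those shares. Among the 15, 2 passed through P21 libraries alone. In the sorted P10 libraries the same sum was 7458 to 9831 FPKM, within reach of P21. At that stage Mfap4 was at 597 ± 41.2 FPKM and Dcn at 656 ± 54.0 FPKM, both above P13, whereas Comp was at 0.367 ± 0.0493, Cilp2 at 0.673 ± 0.205, Chad at 74.2 ± 11.0 and Ucma at 32.4 ± 3.04 FPKM, none with a mean above that at P13. Beyond these values, the part of perichondrial cells in the P21 levels was not tested.

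Many genes that fold and export matrix proteins fell. The list counts here stand beside 40.5% of all genes kept that rose and 7.85% that fell, or 18% and 18.2% after scaling. Serpinh1, the collagen chaperone, was at 571, 627 and 773 FPKM at P13 and 167, 223 and 316 FPKM at P21 (log2 difference -1.51, SE 0.35, adjusted p = 0.00304). P4ha2, a collagen prolyl hydroxylase subunit, fell from 37.0, 37.0 and 36.9 to 15.1, 15.7 and 15.1 FPKM (log2 difference -1.22, SE 0.09, adjusted p = 1.38e-07). Among 21 collagen folding and processing genes 5 rose and 6 fell, and 2 rose and 14 fell after scaling; without the first or the third P13 library 3 rose. Hspa5, the main chaperone of the endoplasmic reticulum (BiP), fell from 771, 944 and 896 to 144, 133 and 156 FPKM (6.03-fold, log2 difference -2.58, SE 0.12, adjusted p = 7.86e-10). Of 25 unfolded protein response and secretory genes 11 fell and 5 rose, or 16 and 3 after scaling. Ddit3, a stress factor, fell (-1.40 log2), while Trib3, one of its known targets, rose from 1.72, 2.21 and 2.55 to 11.2, 12.03 and 12.8 FPKM (log2 difference 2.05, adjusted p = 2.98e-07). In chondroitin sulfate synthesis, which makes the sugar chains of aggrecan, 5 of 18 genes rose and 6 fell, and 0 and 7 after scaling; 3 rose without the second P21 or the first P13 library. Papss2, which supplies active sulfate, fell from 109, 127 and 131 to 57.7, 35.7 and 22.4 FPKM (log2 difference -1.74, SE 0.30, adjusted p = 3.10e-04). Among 15 matrix proteases and inhibitors 9 rose and 3 fell, or 5 and 3 after scaling, when the falls lay near the share of all genes kept. Mmp14, a membrane-bound collagenase, fell from 126, 143 and 153 to 34.5, 34.4 and 40.4 FPKM, and Timp3, an inhibitor of such enzymes, rose from 76.5, 90.2 and 82.3 to 295, 311 and 398 FPKM (log2 differences -1.92 and 1.99).

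Cell division genes fell in nearly every case. Cdk1, the mitotic kinase, was at 19.99, 17.1 and 17.9 FPKM at P13 and 2.99, 2.05 and 1.07 FPKM at P21 (log2 difference -2.72, SE 0.22, adjusted p = 2.46e-07). Ccna2, cyclin A2, was at 5.45, 6.80 and 5.82 and 0.51, 0.42 and 0.26 FPKM (log2 difference -2.33, SE 0.11, adjusted p = 5.00e-10). Of 21 expressed proliferation genes 20 fell in both settings (median log2 difference -1.33, and -1.63 after scaling), 7 of which passed through P13 libraries alone; among genes with at least 5 FPKM in 3 libraries of the series 11 fell. The one not called, Ccnd1, cyclin D1, was at 7.72, 8.20 and 7.87 and 7.29, 8.97 and 13.1 FPKM (log2 difference 0.24, adjusted p = 0.466). Cytosolic ribosomal protein genes fell in 20 of 28 cases and rose in 0, and all 28 fell after scaling; with only the 2 groups in the model 11 fell. All 91 protein-coding ones took 13.6%, 12.6% and 13.9% of the FPKM at P13 and 9.75%, 7.94% and 6.67% at P21 (exact permutation test, two-sided, p = 0.1, the smallest possible). Rpl3 had the largest fall (log2 difference -1.17), and Rpl32 was at 3272, 3396 and 3426 and 3471, 3387 and 3171 FPKM (log2 difference -0.01, adjusted p = 0.973).

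Imprinted growth genes, many of which are shut down after birth, fell in 8 of 14 cases and rose in 3, or 10 and 2 after scaling; the falls numbered 5 without the third P21 or the third P13 library and 4 without the first P13 library. Igf2, a fetal growth factor, fell from 615, 786 and 457 to 74.9, 103 and 208 FPKM (log2 difference -2.36, SE 0.35, adjusted p = 9.00e-05). Dlk1, which restrains fat cell formation, fell from 20.6, 23.5 and 24.0 to 2.12, 1.77 and 2.54 FPKM (log2 difference -2.92, SE 0.48, adjusted p = 2.20e-04). Cdkn1c, an inhibitor of the cell cycle, rose from 72.5, 80.6 and 88.8 to 286, 434 and 524 FPKM (log2 difference 2.31, SE 0.24, adjusted p = 3.23e-06). On the IGF axis, the binding proteins Igfbp6 and Igfbp5 rose from 10.4, 9.75 and 10.4 to 93.7, 187 and 333 FPKM and from 4.12, 4.08 and 3.88 to 61.6, 70.2 and 114 FPKM, by 4.01 and 3.99 log2 units. Igfbp2, more abundant than both at P13 and P21, fell from 1418, 1534 and 1708 to 569, 786 and 1051 FPKM (log2 difference -0.99, adjusted p = 0.0338), a call lost without any 1 library but the third P21 library (-0.77 to -1.06, adjusted p from 0.0579 to 0.132). Of 13 expressed genes of the axis 7 rose and 3 fell, or 5 and 3 after scaling; 2 passed through P21 libraries alone and 1 through P13 libraries alone. Igf1 was at 63.1, 54.4 and 53.1 and 70.4, 64.0 and 80.7 FPKM (log2 difference 0.33, adjusted p = 0.0436); its sign turned after scaling (-0.10) and the call was lost without the first or the third P21 library or the second or the third P13 library (adjusted p from 0.0741 to 0.170).

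Among secreted signals, antagonists of Wnt moved in both directions. Frzb, which binds Wnt ligands and is high in articular cartilage, rose from 53.8, 67.5 and 59.2 to 517, 520.0 and 359.9 FPKM (log2 difference 2.92, SE 0.31, adjusted p = 3.88e-06). Wif1, another Wnt-binding inhibitor, rose from 1215, 1492 and 1479 to 4626, 4502 and 3864 FPKM (log2 difference 1.63, SE 0.26, adjusted p = 1.86e-04). Sfrp1, of the same kind, fell from 17.5, 17.4 and 16.9 to 10.7, 8.36 and 7.42 FPKM (log2 difference -0.91, adjusted p = 2.23e-04). Its relative Sfrp5 was low, at 1.19, 1.29 and 1.19 FPKM at P13 and 2.08, 3.64 and 1.90 FPKM at P21, higher without overlap. Sfrp2 and Dkk3, which also act on Wnt, overlapped between the groups (log2 differences 0.38, adjusted p = 0.130, and 0.04, adjusted p = 0.876; -0.01 and -0.39 after scaling). Of 18 Wnt pathway genes 9 rose and 1 fell, beside 40.5% of all genes kept that rose, and 7 and 2 after scaling; 2 passed through P21 libraries alone. In the BMP and TGF-beta pathway 12 of 24 rose and 5 fell, or 8 and 5 after scaling, beside 40.5% and 7.85%, and 18% and 18.2%, of all genes kept; 3 of the 24 passed through P21 libraries alone. The ligand Tgfb2 rose from 1.91, 2.08 and 1.42 to 22, 31.5 and 23.5 FPKM (log2 difference 3.24, SE 0.22, adjusted p = 3.50e-08). Id1 and Id3, targets of BMP signalling, fell from 983, 1329 and 1306 to 196, 260.5 and 232 FPKM (-2.38 log2) and from 1537, 1649.5 and 1775 to 285, 296 and 306 FPKM (-2.48 log2).

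Genes of the circadian clock moved in both directions. Dbp, a clock output factor, was at 9.57, 13.3 and 12.8 FPKM at P13 and 125, 124 and 147 FPKM at P21 (log2 difference 3.37, SE 0.19, adjusted p = 5.05e-09). The repressors Per3, Nr1d1 and Cry2 rose by 2.94, 2.80 and 0.70 log2. Bhlhe40, another repressor, which also responds to stress, fell from 119, 155 and 132 to 9.48, 10.4 and 14.2 FPKM (log2 difference -3.47, SE 0.18, adjusted p = 3.00e-09), and Nfil3, which competes with Dbp for its sites, fell from 6.94, 8.12 and 8.15 to 1.06, 1.21 and 1.05 FPKM. Of 17 clock genes 11 rose and 3 fell in both settings, 3 of the 17 having passed through P21 libraries alone. The labels give no hour of collection, so time of day cannot be told apart from stage. Glucocorticoid-responsive genes were split, with 5 of 10 higher and 3 lower, or 4 and 3 after scaling; Tsc22d3 rose from 65.4, 70.7 and 82.1 to 164, 202 and 266 FPKM, and Cebpd fell from 128, 152 and 143 to 36.2, 34.9 and 58.7 FPKM. Of 12 expressed transcription factors of fat cell formation 5 rose and 3 fell, or 3 and 3 after scaling. Beside them, 40.5% of all genes kept rose and 7.85% fell, or 18% and 18.2% after scaling. Klf15, which acts late, rose (log2 difference 2.46) and Klf4, which acts early, fell (-2.29).

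Lipoprotein and antioxidant genes were among the abundant rises. Apoe, the main apolipoprotein of tissues outside the liver, was at 1305, 1343 and 1675 FPKM at P13 and 8511, 15040.3 and 14817 FPKM at P21 (8.87-fold, log2 difference 3.11, SE 0.22, adjusted p = 5.53e-08). Apod, a carrier of small lipids, rose from 5.99, 6.69 and 5.76 to 84.9, 138 and 193 FPKM (log2 difference 4.21, SE 0.31, adjusted p = 8.08e-08). Lcat, which esterifies cholesterol in lipoproteins, was the one of 9 expressed genes on this list that fell (109.8, 106 and 143 to 67.5, 68.2 and 54.4 FPKM, log2 difference -0.90, adjusted p = 7.15e-05), while 8 rose, or 7 after scaling. Because 4 of the 9 passed through P21 libraries alone, that count says less than its size. Gpx1, a glutathione peroxidase, rose from 339, 411 and 479 to 1028, 1684 and 1653 FPKM (log2 difference 1.80, SE 0.18, adjusted p = 2.35e-06), and 14 of 25 antioxidant genes rose with 1 fall, or 10 and 3 after scaling. The fall was Osgin1 (-1.67 log2), and 2 fell without the first P13 library. Lysosome and autophagy genes rose in 15 of 22 cases and fell in 0, or 7 and 0 after scaling, with the largest difference in the protease Ctsd, at 159.9, 164 and 186 and 745, 703 and 716 FPKM (log2 difference 2.08, SE 0.11, adjusted p = 1.90e-09).

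The largest falls were in immediate early genes. Fos (ENSMUSG00000021250.13, chr12:85473890-85477273) was at 9831, 10984 and 11175 FPKM in P13 libraries and 36.0, 6.39 and 7.79 FPKM in P21 libraries, a 637-fold fall of means (log2 difference -9.63, SE 0.41, adjusted p = 2.53e-10). Atf3 went from 521, 597 and 683 to 2.04, 1.11 and 0.68 FPKM (log2 difference -8.08, SE 0.17, adjusted p = 1.94e-13), and Junb from 1871, 2410.0 and 2626 to 9.76, 6.13 and 7.25 FPKM (log2 difference -8.05, SE 0.22, adjusted p = 1.70e-12). The first P21 library held the highest Fos of the 3, and still lay far below every P13 library. Of 20 expressed genes of the dissociation response 19 fell and 0 rose in both settings, with a median of -5.75 log2, and the other, Jund, was at 14.6, 18.2 and 21.1 and 6.05, 5.20 and 5.06 FPKM (log2 difference -1.55, adjusted p = 0.136). Among the 20, 2 passed through P13 libraries alone. The list took 2.19% to 2.67% of the FPKM at P13 and 0.0460% to 0.0631% at P21. Adipocytes, floated like the P21 cells, held Fos at 1708 ± 58.4 and Jun at 502 ± 0.692 FPKM, between the P13 and P21 levels. Sorting and flotation followed the same digestion per the labels, and which step sets these levels was not tested.

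Markers of several other cells were low at P13 and rose in part. Schwann cell markers were not low, summing to 446 to 485 FPKM at P13 and 591 to 681 FPKM at P21. Of the 2 expressed, 1 rose as deposited, and 1 rose and 1 fell after scaling. Smooth muscle and pericyte markers summed to 92.9 to 121 FPKM at P13 and 58.5 to 67.2 FPKM at P21. Of the 4 expressed, 1 rose and 2 fell in both settings. Skeletal muscle markers summed to 30.1 to 43.9 FPKM at P13 and to 377, 100 and 666 FPKM in P21 libraries 1, 2 and 3, and the 10 of 17 that were expressed all rose, 2 of which passed through P21 libraries alone, for example Tnnc2 at 2.09, 1.76 and 1.35 and 33.5, 9.98 and 60.7 FPKM (log2 difference 3.40, SE 0.64, adjusted p = 7.18e-04). Erythroid markers summed to 4.74 to 7.86 FPKM at P13 and 84.3, 214 and 451 FPKM at P21, with 4 of 4 expressed genes higher, 1 of which passed through P21 libraries alone; their globin genes are near-identical copies whose reads may be shared. Macrophage markers summed to 4.54 to 6.08 FPKM at P13 and 21.7 to 37.6 FPKM at P21, and 6 of 6 expressed genes rose, 4 of them having passed through P21 libraries alone. Endothelial markers did not follow: 0 of 4 expressed genes were called, and their sums were 13.0 to 13.7 and 13.2 to 23.8 FPKM. Keratinocyte markers stayed below 8 FPKM in sum, and no lymphocyte, neutrophil or mast cell, or melanocyte marker was expressed by the limit used. The part of these cells in other results was not tested.

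**Figure D4:**
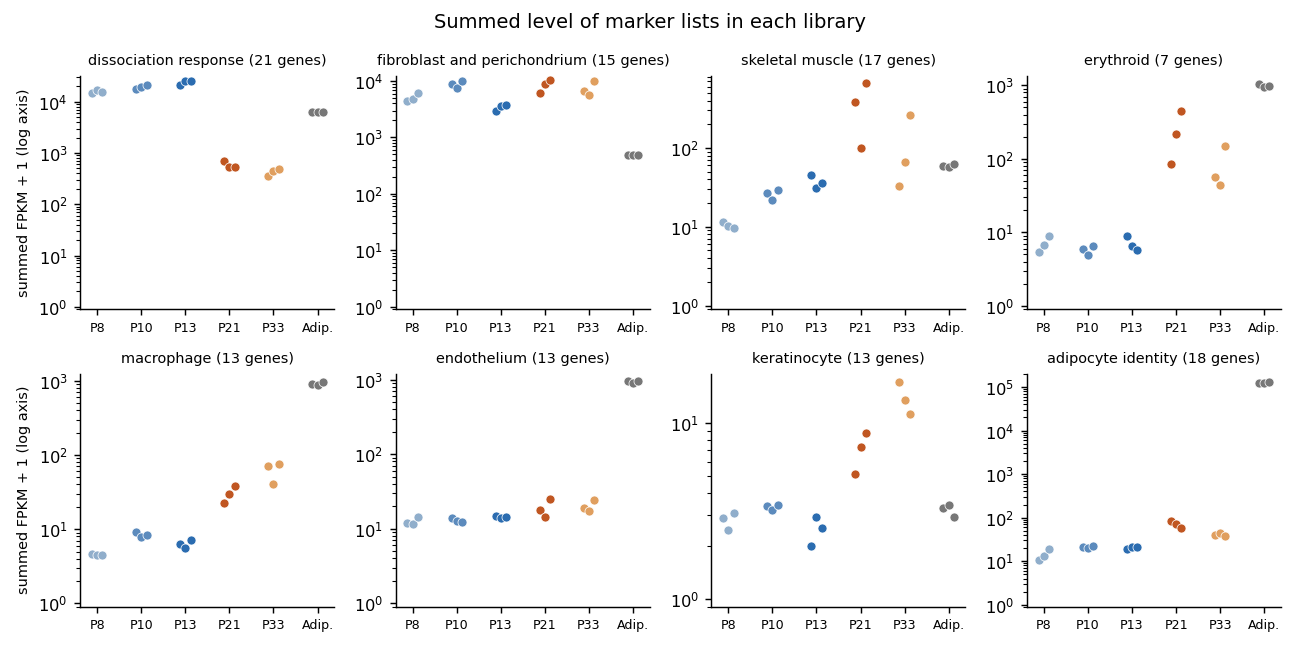
Summed FPKM + 1 (log axis, range differing between panels) of 8 marker lists in each of the 18 libraries, 1 point a library; all listed genes are summed, expressed or not. The dissociation response is lower in the P21 than in the P13 libraries, muscle, erythroid and macrophage sums are higher, and the adipocyte sum is 56.4 to 81.6 FPKM at P21 against 120610 to 127030 in adipocytes.

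Outside the lists, the largest rise by the rule for named genes was Angptl7, a secreted angiopoietin-like protein, at 2.81, 2.34 and 2.66 FPKM at P13 and 413, 1059.7 and 1575 FPKM at P21 (390-fold, log2 difference 7.94, SE 0.35, adjusted p = 4.04e-10). Wfdc2, a secreted protease inhibitor-like protein, rose from 8.61, 7.84 and 8.50 to 523, 1103 and 1479 FPKM (log2 difference 6.67, SE 0.38, adjusted p = 6.19e-09). Both were lowest in the first P21 library. Aqp2, a water channel best known from the kidney, rose from 2.32, 2.19 and 2.44 to 99.7, 148 and 116 FPKM (log2 difference 5.18, SE 0.15, adjusted p = 5.16e-12), and adipocytes held 0.0267 ± 0.0462 FPKM. Pxmp2, a peroxisomal membrane channel, rose from below 0.4 FPKM in every P13 library to 50.1, 61.1 and 45.3 FPKM (log2 difference 5.29, adjusted p = 4.68e-13). Trf, the iron carrier transferrin, rose from 94.8, 97.7 and 96.2 to 2546, 3014 and 2192 FPKM (log2 difference 4.72, adjusted p = 7.00e-09). Cox8b, a respiratory subunit of brown fat and muscle, rose from 0, 1.18 and 0 to 56.4, 80.8 and 94.6 FPKM (log2 difference 5.88, adjusted p = 2.32e-09). Of 11 brown fat markers 4 were expressed and 3 rose, Cox8b, Cidea and Cox7a1 (the last not without the first P13 library, 0.89, adjusted p = 0.0503), while Ucp1, which defines brown fat, was listed at 0 in all 6 libraries. The part of muscle or brown fat cells in the level of Cox8b was not tested. The other large rises were Ly6c1, Rarres1, Ly6a, Hba-a2 and Itgbl1, by 4.76 to 6.11 log2. The 15 largest falls were immediate early genes apart from mt-Tq, Hist1h2ae and Hist1h2ap. Reads of the histone genes can be shared between near-identical copies.

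**Figure D5:**
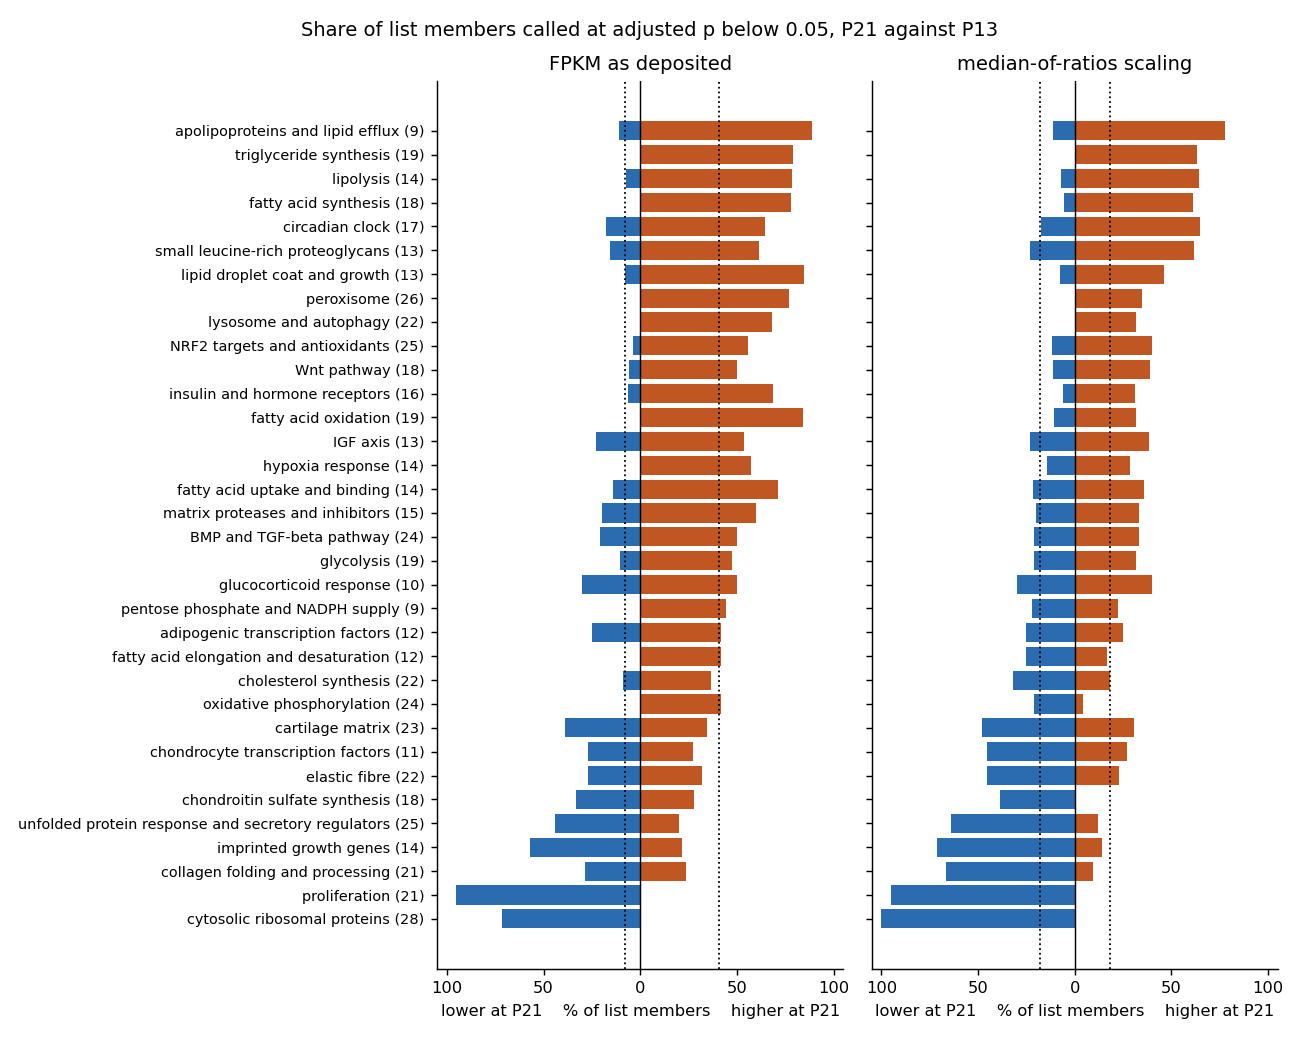
Share of the expressed members of each list that were higher (right, orange) or lower (left, blue) at P21 at adjusted p below 0.05, as deposited (left panel) and after median-of-ratios scaling (right panel); numbers in brackets are the expressed members, and dotted lines mark the share of all genes kept. Triglyceride and fatty acid synthesis lie to the right of the dotted line in both panels and ribosomal proteins and proliferation to the left, whereas oxidative phosphorylation goes from 10 higher and 0 lower of 24 to 1 higher and 5 lower.

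P33 against P10, which repeats the change from sorted to floated cells without sharing a library, was set beside these results. In it, 54.8% of the same genes were higher and 11.8% lower as deposited, and 27.4% and 26.8% after scaling. Of the 4397 rises from P13 to P21, 3930 (89.4%) were also higher at P33 than at P10 and 31 lower. Of the 852 falls, 685 (80.4%) were also lower and 18 higher. In the scaled values, 1583 of 1956 rises (80.9%) and 1670 of 1978 falls (84.4%) were called in the same direction. Scd1 differed by 4.50 log2 between P21 and P13 and by 6.16 between P33 and P10, Dgat2 by 3.22 and 3.57, and Comp by 6.84 and 8.29. For Fos the values were -9.63 and -11.51, and for Col2a1 -2.19 and -4.62.

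For some genes the values of the comparisons stood apart. Me1 was called between P13 and P21 (1.98 log2) and not between P10 and P33 (0.39, adjusted p = 0.148), with means of 47.1 ± 16.7 FPKM at P21 and 14.7 ± 4.03 FPKM at P33. Cd36, a fatty acid transporter, was at 5.46 ± 2.13 FPKM at P21 but 0.660 ± 0.161 FPKM at P33 (P33 minus P10 0.32, adjusted p = 0.141). Mfap4 differed by -0.10 log2 (adjusted p = 0.842) and Col1a1 by 0.14 (adjusted p = 0.714), P10 being the stage with the high fibroblast marker sum. Cytl1, a secreted protein of cartilage, was at 16337, 14234 and 16576 FPKM at P13 and 9542, 12539 and 14987 FPKM at P21, overlapping groups (log2 difference -0.37, adjusted p = 0.144, and -0.81, adjusted p = 0.00954, after scaling), but was higher at P33 than at P10 (0.96, adjusted p = 6.23e-04). The difference between the 2 comparisons was not tested for any gene.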

How the data were processed

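RNA from 18 libraries of the mouse ear cartilage and inguinal fat was sequenced, 3 in each of 6 groups, of which P13 and P21 are compared here. The authors deposited 1 table of FPKM values for all libraries and 1 table with the count of total reads and the alignment rate in percent for each library, per the file headers. The submitters' processing notes name STAR 2.4.2a as aligner and mm10 as genome; for the counter, the annotation and the use of strand, nothing is given in the sources used here. FPKM values hold no depth, so precision rests on the spread between libraries. No pair of libraries was identical.

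Computed here: log2(FPKM + 1), that is with a pseudocount of 1, was fitted with limma 3.58.1 in R 4.3.3 as 6 group means over all 18 libraries with a mean-variance trend. Genes entered (13815) where 3 or more of the 18 libraries reached 1 FPKM, and p-values were adjusted by Benjamini-Hochberg over all of them. On simulated data with 13815 genes, 71 of 100 genes changed by 1 log2 unit and 98 of 100 changed by 2 were called in P21 against P13, with 10 false calls. The simulated noise was normal, very low genes were not changed, and all other genes were set equal at P13 and P21. Far more genes differ in the real values, which also shift between the stages, so these rates need not hold for them. Fold changes are ratios of mean FPKM, and log2 differences understate the change of low genes. Shares of FPKM in single libraries were compared by exact permutation tests. The table was also scaled by the median of ratios, since the deposited P21 values ran higher for most genes. Other pseudocounts, filters, scalings, models and left-out libraries were tried.

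The genes compared and the lists were chosen with earlier results of these data known, so that no list is independent support for its direction. Where a count for a list does not mention it, at most 1 gene of that list passed through the libraries of 1 stage alone. All 970 list entries were found, 966 by symbol and 4 by synonym; lists overlap in some genes (Elovl6 is in that of fatty acid synthesis and that of elongation), and a gene is described as expressed where it passed the limit of 1 FPKM in 3 of the 6 libraries. Named genes had a call, no overlap between the groups, a standard symbol and a mean of 10 FPKM or more where they were higher; the 15 that rose most and the 15 that fell most were taken, then up to 4 called genes of each list by size of difference, and a set of genes of interest. Other genes named (Ccnb1, Ccnd1, Col11a1, Col11a2, Col9a2, Cry2, Dkk3, Efemp2, Emilin1, Epyc, Fbln5, Igfbp2, Jund, Kera, Lcat, Ldha, Lect1, Lpcat1, Lpl, Matn4, Nfil3, Otos, Postn, Prkar2b, Rpl32, Sfrp1, Sfrp2, Sfrp5 and Slc27a3, and those at levels too low to enter) were chosen after their values were seen. Gene positions are those of GENCODE M21 (GRCm38), in which 99.7% of the genes kept were found, and promoters are those of RefSeq on GRCm38.p6. Figures were drawn with matplotlib 3.10.9.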

Additional observations from a re-analysis of the deposited data

How the results depend on the processing

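The counts of genes depended on scaling. Median-of-ratios scaling gave 1956 genes higher and 1978 lower from P13 to P21, and 2970 higher and 2905 lower from P10 to P33, in place of 4397 and 852, and 5953 and 1276. Columns rescaled to an equal sum gave 2791 higher. Leaving out 1 library at a time gave 3590 to 4012 higher and 699 to 859 lower for P21 against P13, and 5353 to 5955 higher and 1081 to 1238 lower for P33 against P10. The other pseudocounts, filters and models moved these counts by less than 1.5 times. Of the 235 named genes put through the alternatives, 22 lost their call under at least 1 alternative, 16 of them under median-of-ratios scaling, 10 gained one and 9 changed sign. None of the 9 was called after the change: Pparg (-0.15), Mia (-0.06), Igf1 (-0.10), Ccnd1 (-0.15), Sfrp2 (-0.01) and Dkk3 (-0.39, and -0.17 with columns rescaled to an equal sum) under median-of-ratios scaling, and Elovl6 (-0.40 to 0.07 with 1 library left out, above 0 without P21 replicate 3), Lpl (-0.13 to 0.00, without P13 replicate 1), Dkk3 (-0.09 to 0.12, without P21 replicate 3 or P13 replicate 1) and Rpl32 (-0.04 to 0.03, without P21 replicate 3 or P13 replicate 3). Numbers of libraries do not pair them: the correlations of same-numbered P13 and P21 libraries were -0.0593, -0.168 and 0.0649, and not every library correlated best with its own number. With the replicate number as a block, 4528 genes were higher and 877 lower (6017 and 1281 for P33 against P10). The values hold no depth, stage and isolation cannot be told apart, and the cause of the shift between scalings was not tested.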

Other observations

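Several abundant RNAs outside the lists moved between P13 and P21. They were chosen after their values were seen. Sparc, which encodes osteonectin, a collagen-binding protein, took 4.11% to 5.15% of the FPKM at P13 and 9.28% to 10.2% at P21 (log2 difference 1.32, SE 0.20, adjusted p = 1.26e-04). The unnamed locus 1520401A03Rik (chr17:23704488-23722783) took 8.78% to 11.2% at P13 and 1.18% to 1.90% at P21 (log2 difference -2.55, SE 0.26, adjusted p = 2.35e-06), and was listed at 478 ± 237 FPKM at P33 and 0.0833 ± 0.0404 FPKM in adipocytes. The signal recognition particle RNAs Rn7s1 and Rn7s2, which held identical values, together took 1.43% to 2.39% at P13 and 4.59% to 7.90% at P21. Each share differed without overlap (exact permutation test, two-sided, p = 0.1, the smallest possible). Neat1, a long non-coding RNA of nuclear bodies, was at 20.6, 24.7 and 22.9 FPKM at P13 and 129, 155 and 88.5 FPKM at P21 (log2 difference 2.37, SE 0.30, adjusted p = 2.03e-05). Malat1 was at 4123, 4795 and 4076 and 9848, 12543 and 8241 FPKM, higher without overlap (2.36-fold) but not called (log2 difference 1.22, SE 0.60, adjusted p = 0.114). The model shares its estimate of spread over the 6 groups, and Malat1 was at 12901 ± 9463 FPKM at P33. Rn7sk, a small RNA that restrains transcription elongation, fell from 15.2, 18.03 and 16.1 to 5.55, 3.95 and 4.18 FPKM.

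Of the 6 expressed genes of the Serpina3 protease inhibitor family all rose, with Serpina3n at 44.1, 47.0 and 49.4 FPKM at P13 and 786, 1377 and 543 FPKM at P21 (log2 difference 4.13, SE 0.40, adjusted p = 1.75e-06). Serpina3c, Serpina3f, Serpina3g and the pseudogene Serpina3e-ps passed through P21 libraries alone, so that count says less than its size. Reads may be shared between related members of this family, and how alike their sequences are was not measured here. Solute carrier genes rose in 81 of 164 cases and fell in 6, against 41 and 22 after scaling. Genes annotated as antisense rose in 59 of 109 cases and fell in 0, or 40 and 3 after scaling. Among all genes kept, 40.5% rose and 7.85% fell, or 18% and 18.2% after scaling; whether the counting used strand is not given in the sources used here. Rps3a2 and Rps3a3, annotated as processed pseudogenes, were at 0, 1.46 and 0 and 0.66, 0.50 and 1.00 FPKM at P13 and 341, 170.1 and 272 and 199, 79.4 and 207 FPKM at P21, whereas the parent Rps3a1 was at 1656, 1915 and 1926 and 1191, 943 and 593 FPKM. Reads of such copies can be shared. The P10 cells, sorted like those of P13, held 676 ± 80.0 and 499 ± 33.6 FPKM of the copies.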
